A study of Rattus norvegicus with 35 samples.

Results

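The comparison described here set male rats fed a potassium-deficient diet (DK) against male rats fed a high-potassium diet (HK), with 6 RNA-seq libraries of kidney cortex on each side, 12 of the 35 libraries of the series. The members were chosen by the diet and sex given in the labels, and the description runs over the 14264 of 32545 genes that reached 1 FPKM in 5 or more of the 35 libraries. FPKM, fragments per kilobase of gene scaled to the fragments of the library, is the unit of all levels. All rats were labelled WT, ate food with 4% NaCl, a high-salt diet, and had a blood pressure telemeter implanted at 8 weeks of age. The DK food lacked potassium by its label, with no percentage given, the HK food held 1.41% potassium, and a normal diet (NK) held 0.36%. The diets lasted 5 weeks, after which cortex from a single kidney was frozen. The series title places the work in salt-sensitive hypertension; the strain is not named in the labels. Male NK rats (6 libraries), female DK rats (6) and female HK rats (5) are used below only for context. The labels do not say that each library came from its own animal beyond the sample names, so what the p-values measure is the spread between samples, which may be technical.

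The kidney holds the body's potassium in balance, and the distal nephron does most of the adjusting. When dietary potassium is short, principal cells secrete less of it, intercalated cells reclaim it in exchange for protons, and the sodium chloride cotransporter of the distal convoluted tubule is known to become more active. Potassium depletion is also known to raise ammonia production in the proximal tubule. There glutamine is taken up, deaminated in steps that end with glutamate dehydrogenase, and its carbon is passed through phosphoenolpyruvate carboxykinase into glucose.

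Promoters of 4 genes that rose in DK are shown first, since they stand for the groups that the results turn on: ammonia production (Pck1 and Glud1), the proton pump (Atp6v1g3) and fatty acid oxidation (Cyp4a2). Each holds 250 bases before and 50 bases after the annotated start, 5′ to 3′ on the gene's strand, from RefSeq on build GRCr8. Capitals mark matches on either strand to TTACGTCA, a cAMP response element, to TGACG, the core of such elements, or to AGGTCA, the half-site of many nuclear receptors.
Pck1 (chr3:182348322-182348621, plus strand): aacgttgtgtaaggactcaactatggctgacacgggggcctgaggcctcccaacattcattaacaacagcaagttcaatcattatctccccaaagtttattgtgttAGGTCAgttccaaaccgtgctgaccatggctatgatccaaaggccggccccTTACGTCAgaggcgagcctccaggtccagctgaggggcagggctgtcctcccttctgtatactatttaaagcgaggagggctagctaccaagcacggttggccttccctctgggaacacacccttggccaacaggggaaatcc
Glud1 (chr16:9646319-9646618, plus strand): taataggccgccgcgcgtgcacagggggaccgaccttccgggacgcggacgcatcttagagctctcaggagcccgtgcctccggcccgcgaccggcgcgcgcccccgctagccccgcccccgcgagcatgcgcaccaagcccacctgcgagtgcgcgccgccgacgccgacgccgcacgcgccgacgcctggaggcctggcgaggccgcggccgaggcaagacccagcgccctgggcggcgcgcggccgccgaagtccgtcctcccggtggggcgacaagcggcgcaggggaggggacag
Atp6v1g3 (chr13:52362082-52362381, plus strand): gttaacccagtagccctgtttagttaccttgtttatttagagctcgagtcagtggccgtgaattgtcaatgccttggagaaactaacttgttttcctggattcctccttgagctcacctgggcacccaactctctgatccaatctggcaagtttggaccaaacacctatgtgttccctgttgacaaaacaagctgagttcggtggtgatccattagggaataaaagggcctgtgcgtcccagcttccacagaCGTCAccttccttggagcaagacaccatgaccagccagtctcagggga
Cyp4a2 (chr5:134170859-134171158, minus strand): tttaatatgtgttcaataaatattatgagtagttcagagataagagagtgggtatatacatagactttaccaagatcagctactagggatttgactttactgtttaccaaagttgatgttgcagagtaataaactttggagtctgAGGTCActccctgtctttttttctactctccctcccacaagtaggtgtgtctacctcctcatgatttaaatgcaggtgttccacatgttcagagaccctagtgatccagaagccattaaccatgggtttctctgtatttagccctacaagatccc
The Pck1 window held TTACGTCA beginning 93 bases before the start, overlapping a TGACG match on the opposite strand, and AGGTCA beginning 144 bases before it. Atp6v1g3 had a TGACG match beginning 2 bases after the start, and Cyp4a2 had AGGTCA beginning 105 bases before it. Among the 33469 RefSeq promoter windows of this length, 0.807% held TTACGTCA, 21.2% TGACG and 16.2% AGGTCA. No match of any of the 3 lay in the Glud1 window, which says only that these letters are not there.

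Of the 14264 genes, 616 differed between DK and HK by limma at an adjusted p under 0.05 (4.32%), 385 higher in DK (2.7%) and 231 lower (1.62%). The changes were mostly small: the median size among the 616 was 0.49 on the log2 scale with a median SE of 0.12, and 51 genes were more than 2-fold higher and 23 more than 2-fold lower. All 6 DK libraries lay outside the HK range in 405 genes (2.84%), 206 above and 199 below, and 225 genes were both called and without overlap. All log2 changes are differences of mean log2(FPKM + 0.5), DK minus HK, and understate the changes of genes with low FPKM. Scaling each library to its own sum of reads, and not as the authors did, gave 693 genes, split into 210 higher and 483 lower, against 385 and 231, and moved the median over all genes from -0.001 to -0.083.

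The count depended on single libraries. It was 1046 without DK replicate 1, and 279, 252, 304 and 319 without DK replicates 2, 4, 5 and 6. Leaving out HK replicates 2, 3, 4 and 6 gave 403, 385 and 334 genes for the first 3, and 173 higher and 95 lower for HK replicate 6. With DK replicate 3, HK 1 or HK 5 left out, 652, 474 and 676 genes passed. DK replicate 1 was the DK library closest to HK: it was the lowest DK library in all 12 of the largest rises and the highest DK library in 10 of the 12 largest falls.

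Reads in genes ranged from 14.2 M to 16.04 M in DK and from 14.35 M to 20.91 M in HK. The 50 genes with the most reads took 25.4 ± 0.902% of the reads in DK and 22.8 ± 1.66% in HK (SD, n = 6; exact permutation test, 2-sided p = 0.00216, the smallest it can give, adjusted p = 0.0108 over 5 library measures). The library size behind the authors' scaling, divided by the sum of reads, was 0.998 ± 0.0268 in DK and 1.062 ± 0.050 in HK (exact permutation p = 0.00866, adjusted p = 0.0216). Mitochondrial transcripts took 11.55 to 13.61% in DK and 7.651 to 12.45% in HK (exact permutation p = 0.0433, adjusted p = 0.0722). HK replicate 5 stood apart, with the lowest mitochondrial share and 19.52% in its 50 leading genes; its part in the results is given by the counts without it. By their labels 5 DK libraries are numbered in the 200s, and DK replicate 6 and all 6 HK libraries in the 300s. What the number series marks is not stated. Besides male DK, only the female rats on the normal diet hold both series, with 4 libraries in the 200s. Series and diet can be told apart only through DK replicate 6 and that female group. A fit with the series as a covariate called 129 genes, 86 higher and 43 lower, 111 of them among the 616. All 616 genes kept their sign in that fit, with a median size of 0.5 and a median SE of 0.17. They were picked in these same libraries, which favours a kept sign, and the share over all tested genes was not counted. Within the 300s, where the spread of the lone DK library is borrowed from the other groups, 97 genes passed, 71 higher and 26 lower, 69 of them shared. Of the 319 genes called without DK replicate 6, that library lay beyond all 6 HK libraries in the direction of the call in 84.3%. Over all tested genes it did so in the direction of their fitted change in 40.4%. The 319 genes were chosen with the same 6 HK libraries, which favours this place, so the share is a description.

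The 12 largest rises among named, called genes averaging 2 FPKM or more were led by Fam25a, a gene of the FAM25 family. Its FPKM in DK was 4.82 at the lowest, 21.8 at the median and 187.5 at the highest, against 0.807, 1.99 and 2.82 in HK. The groups did not overlap, and the rise was 3.61 on the log2 scale (SE 0.50, adjusted p = 4.66e-05). Abcb11, the bile salt export pump of the liver, stood at 1.64, 6.80 and 20.1 FPKM (lowest, median and highest) in DK and at 0.423, 0.519 and 1.41 in HK. Here too every DK library was above every HK library, with a log2 rise of 2.81 (SE 0.36, adjusted p = 2.75e-05). Cyp27b1, which activates vitamin D in the proximal tubule by hydroxylation, ran from 2.498 to 21.4 FPKM in DK (median 5.76) and from 0.356 to 1.65 in HK (median 0.575). It rose by 2.54 (SE 0.34, adjusted p = 3.46e-05), again without overlap.

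Tmed6, of the p24 family of cargo receptors in the secretory pathway, rose from 20.6 ± 3.33 FPKM in HK to 84.2 ± 31.8 in DK (SD, n = 6), by 1.92. Gstm1, a glutathione transferase, rose from 35.4 ± 14.0 to 142 ± 75.4, by 1.90. Gp2, a membrane glycoprotein related to uromodulin, rose by 1.98, the membrane protein gene Vstm2a by 1.87, Slc38a3 by 1.68 and Kng1l1, of the kininogen family, by 1.64. Rup2, of the rat urinary proteins, had 206 reads over the 6 DK libraries and 2 over the 6 HK libraries. That is a ratio of 117 by the authors' library sizes, with a 95% exact binomial interval of 32 to 972 that covers counting error only. DK replicate 1, at 0.219 FPKM, lay between the highest HK library, at 0.108, and the other DK libraries, from 2.59 to 8.60. Klk1c10 rose by 2.07, but its reads are uncertain because the kallikrein genes of this cluster are near-identical, and Rup2, Gstm1 and Kng1l1 also have close relatives.

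Of these 12 genes, 9 showed no overlap between DK and HK, and Slc38a3, Klk1c10 and Kng1l1 overlapped. DK replicate 6, the DK library of the 300s, lay above every HK library in 12 of 12. The genes were chosen with that library among the DK libraries, which favours this place, so the count is a description. With the covariate for number series 10 kept their call, and Klk1c10 and Kng1l1 lost it (adjusted p up to 0.213). Leaving out DK replicate 2 or 6 ended the call of Klk1c10 (adjusted p up to 0.0571) and leaving out DK replicate 5 that of Kng1l1 (0.0586). The plot of the leading genes shows each library.

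**Figure D1:**
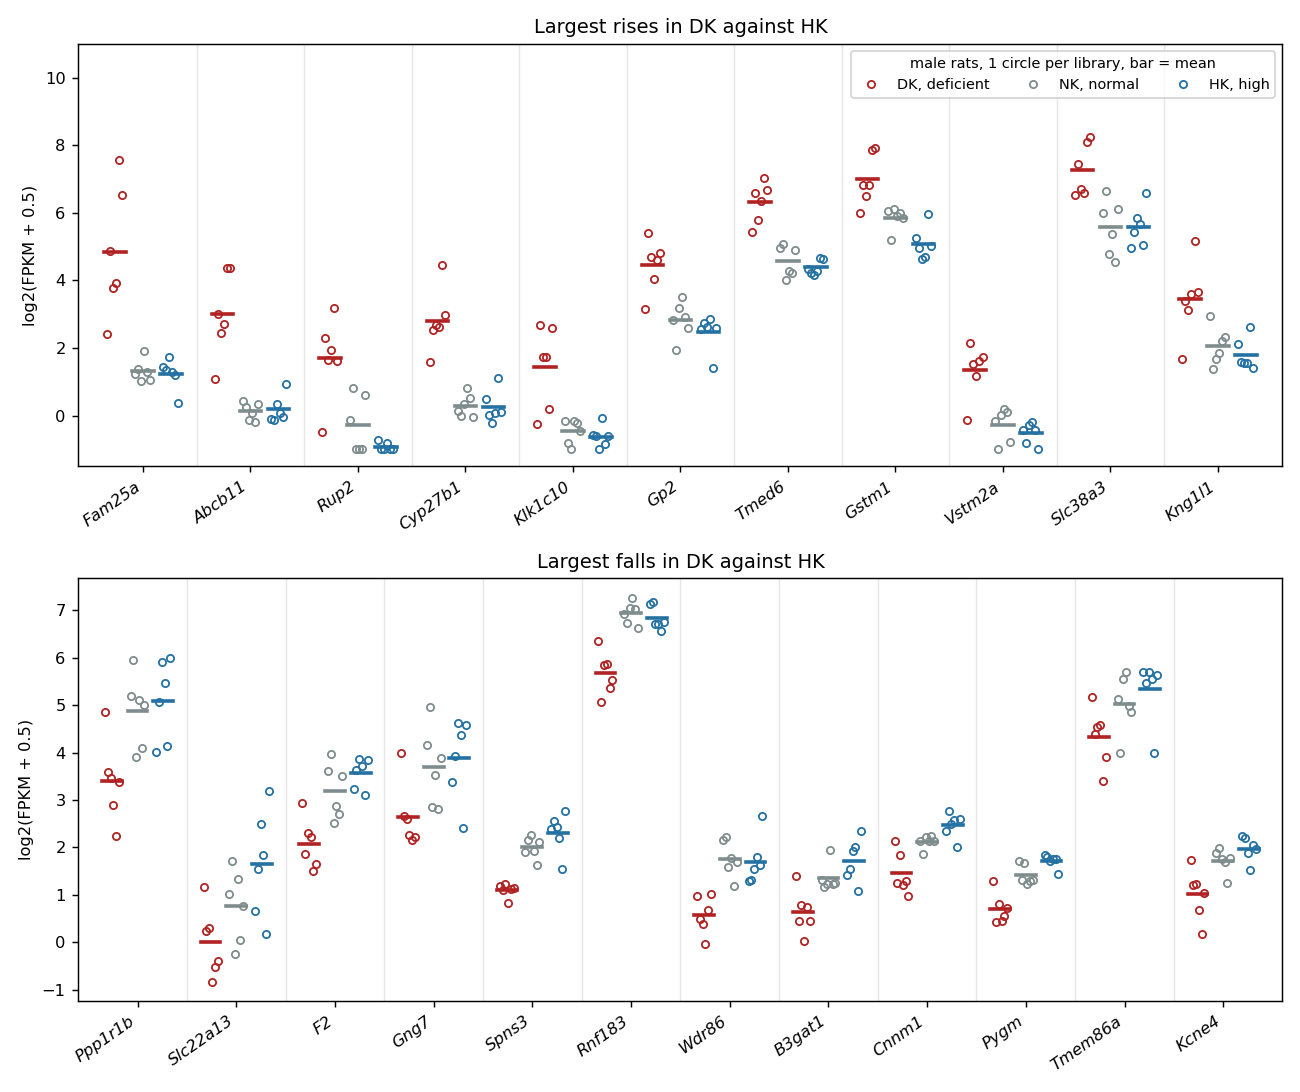
Log2(FPKM + 0.5) of 11 of the 12 largest rises and of the 12 largest falls, with 1 circle per male library and a bar at each group mean. The DK bar (red) stands above the HK bar (blue) in the upper panel and below it in the lower panel. By group mean FPKM on the log2 scale, NK (grey) lies nearer to HK than to DK in all 11 rises and in 11 of the 12 falls.

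The largest falls were led by Ppp1r1b, also known as DARPP-32, a phosphatase inhibitor controlled by cAMP. It stood at 4.23, 10.2 and 28.3 FPKM (lowest, median and highest) in DK and at 15.6, 38.3 and 63.1 in HK. The ranges overlapped through DK replicate 1, and the fall was 1.69 in log2 units (SE 0.41, limma adjusted p = 0.0163). F2, the prothrombin gene, fell from 11.6 ± 2.52 to 3.98 ± 1.77 FPKM, by 1.49 (SE 0.23, adjusted p = 0.000192), with no overlap. Spns3, of the spinster transporter family, ran from 1.28 to 1.85 FPKM in DK and from 2.42 to 6.29 in HK, and fell by 1.21. Rnf183, a ubiquitin ligase of the collecting duct, fell from 116.0 ± 21.4 to 52.7 ± 17.2 FPKM, by 1.17. Pygm, the muscle form of glycogen phosphorylase, fell by 1.01 from 2.80 ± 0.303 to 1.17 ± 0.408.

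The other 7 of the 12 were Slc22a13, an organic anion transporter (-1.66), Gng7, a G protein gamma subunit (-1.23), Wdr86 (-1.12), the glucuronyltransferase B3gat1 (-1.07), Cnnm1 of the cyclin M family (-1.02), the lysoplasmalogenase-like gene Tmem86a (-1.01) and the potassium channel subunit Kcne4 (-0.96). Groups did not overlap in 5 of the 12 falls: F2, Spns3, Rnf183, Wdr86 and Pygm. The calls of Slc22a13 and Gng7 ended without any 1 of DK replicates 2, 4, 5 and 6 and HK replicates 2, 3, 4 and 6 (adjusted p up to 0.111). That of Tmem86a ended without the same libraries or HK 1 (up to 0.0957), Kcne4 without DK 4 or 5 or HK 1, 2 or 6 (up to 0.0805) and Ppp1r1b without DK 4 or 5 or HK 6 (up to 0.056). With the covariate for number series 6 of these falls kept their call, F2, Spns3, Rnf183, B3gat1, Cnnm1 and Pygm.

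In the list for ammonia and acid-base handling 6 of 20 genes rose, among them Slc38a3, Glud1, Pck1, Rhbg and Car4, and none fell. Higher calls made up 2.7% of all tested genes. The median change of the list was 0.30 against -0.001 over all genes. Without DK replicate 1 or HK replicate 5, and with quantile normalization, library sums or library weights, 1 gene of the list passed as lower. Slc38a3, the transporter that brings glutamine into proximal tubule cells, stood at 91.6, 140.4 and 301.5 FPKM (lowest, median and highest) in DK and at 30.4, 47.0 and 96.7 in HK. Its groups overlapped only through HK replicate 6, and it rose by 1.68 (SE 0.37, limma adjusted p = 0.0076). Glud1, the dehydrogenase that frees ammonium from glutamate, ran from 405.5 to 819 FPKM in DK (median 562) and from 264.6 to 336.8 in HK (median 305). No DK library reached down into the HK range, and the rise was 0.94 (SE 0.16, adjusted p = 0.000532).

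Pck1, whose promoter is printed above, was among the most abundant messages, at 1958, 3699 and 4852 FPKM (lowest, median and highest) in DK and 863, 1528 and 1933 in HK. Its groups did not overlap by a narrow margin, DK replicate 1 being just above HK replicate 2, and the rise was 1.32 (SE 0.25, limma adjusted p = 0.00233). Rhbg, an ammonia channel of the basolateral membrane, rose by 0.76, with 5 of 6 DK libraries above every HK library. Car4, a membrane-bound carbonic anhydrase, rose by 0.70 and was named after its value was seen. The number rising ran from 6 to 8 when any 1 library was left out and was 4 with the number series as a covariate and 2 within the 300s. Glud1 was called in every alternative, Pck1 and Slc38a3 lost their call within the 300s alone (adjusted p = 0.102 and 0.0836), and Rhbg and Car4 lost theirs with the covariate too (adjusted p up to 0.221).

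**Figure D2:**
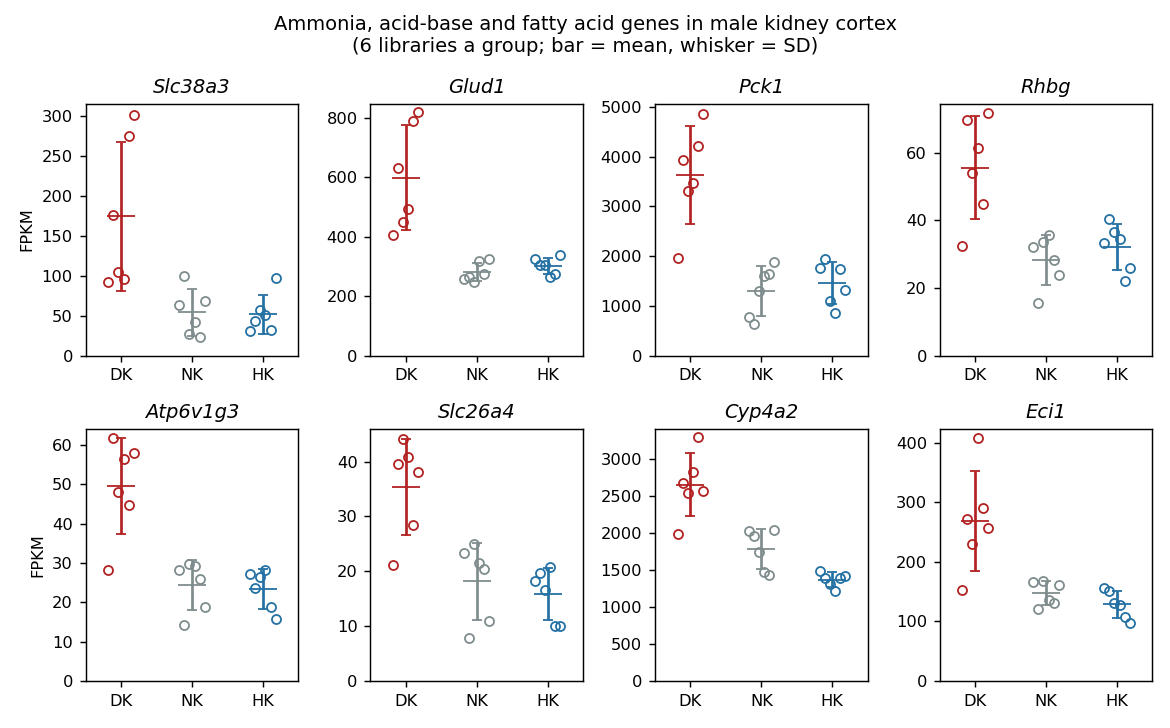
FPKM of 8 genes in the 6 DK, 6 NK and 6 HK male libraries, with a bar at the mean and whiskers of 1 SD. Pck1 ran from 1958 to 4852 in DK and from 863 to 1933 in HK, and the lowest DK circle in each panel is DK replicate 1.

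A part of the genes of the proton pump, and of the intercalated cells that carry it, was also called higher. The V-ATPase acidifies urine at the intercalated cell membrane. Of its 20 subunit and accessory genes 6 rose and none fell, with a median of 0.29, where 2.7% of all tested genes were called higher. Atp6v1g3, a subunit isoform of the kidney, stood at 28.2, 52.2 and 61.7 FPKM (lowest, median and highest) in DK and 15.7, 25.1 and 28.1 in HK. Its lowest DK library was level with its highest HK library, and it rose by 1.05 (SE 0.19, limma adjusted p = 0.0017). Atp6v0d2 rose by 0.63, Atp6v1f by 0.57, and the accessory subunits Atp6ap2, the prorenin receptor, and Atp6ap1 by 0.28 and 0.23. Of 16 intercalated cell markers 5 rose and none fell, with a median of 0.38. They were Slc26a4, Atp6v1g3, Rhbg, Atp6v0d2 and Insrr, an insulin receptor relative that senses alkali, which was named outside the naming rule (0.76, adjusted p = 0.0486). Slc26a4, or pendrin, the chloride and bicarbonate exchanger of type B cells, rose from 15.9 ± 4.78 to 35.4 ± 8.77 FPKM, by 1.15 (SE 0.26, adjusted p = 0.0112), and its lowest DK library, at 21.1, was above its highest HK library, at 20.7. The summed FPKM of the intercalated list was 515.6 to 848.1 in DK and 403.2 to 573.3 in HK. In cortex as a whole, more cells of a type and more RNA per cell cannot be told apart.

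These calls were less firm than those of the ammonia genes. The proton pump count was 1, 1, 3 and 2 without DK replicates 2, 4, 5 and 6, 9 without DK 1, DK 3 or HK 1, and 3 and 2 without HK 5 and HK 6. The intercalated count was 3 without DK 2, 4 or 6 or HK 5 or 6 and 4 to 6 otherwise. Both counts were 0 with the number series as a covariate, where the medians were 0.20 and 0.38, and within the 300s, where they were 0.33 and 0.63. Slc26a4 and Atp6v1g3 kept their call without any 1 library, at adjusted p up to 0.0409, and lost it with the covariate (0.214 and 0.108). Atp6v1f lost its call without DK 2, 4, 5 or 6 or HK 6 (adjusted p up to 0.0652), Atp6ap1 without the same libraries (0.0606), Atp6ap2 without DK 2, DK 4 or HK 5 (0.0706) and Atp6v0d2 without DK 2, 4 or 6 or HK 2, 5 or 6 (0.0942). Insrr lost it without any library but DK 1 and HK 2 (up to 0.117).

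Fatty acid oxidation had the largest share of calls among lists of over 10 genes. Of 25 genes 10 rose and none fell, with a median of 0.32, where 2.7% of all tested genes were called higher. The summed FPKM of the list was 4151 to 6126 in DK and 2924 to 3553 in HK. Cyp4a2, an omega-hydroxylase of fatty acids that also makes 20-HETE, held much of that sum, with 1990, 2617 and 3298 FPKM (lowest, median and highest) in DK and 1210, 1391 and 1488 in HK. It rose by 0.94 (SE 0.15, limma adjusted p = 0.000404), with no overlap; other Cyp4a genes share much of its sequence. Eci1, an isomerase for unsaturated chains, rose from 128.5 ± 23.1 to 268.3 ± 83.8 FPKM, by 1.02. Slc25a20, which carries acylcarnitines into mitochondria, rose by 0.50 and Hadha, of the trifunctional protein, by 0.39, both without overlap. The number rising was 6 without DK 2, 4 or 6 or HK 3 or 4, 12 without DK 1 or DK 3, and 7 to 11 otherwise. It was 7 with the number series as a covariate and 0 within the 300s, where the median was 0.30.

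Among 16 genes of gluconeogenesis and glucose handling 3 rose and 1 fell, with a median of 0.14. Of all tested genes 2.7% were called higher and 1.62% lower. Besides Pck1, the lactate dehydrogenase gene Ldha rose by 0.47 and the glucose transporter Slc2a2 by 0.50. Pklr, the pyruvate kinase that runs against gluconeogenesis, fell from 17.0 ± 5.24 to 9.83 ± 4.36 FPKM, by 0.79. Pklr lost its call without DK 2, 4, 5 or 6 or HK 2, 3, 4 or 6 (adjusted p up to 0.119), Slc2a2 without DK 2, 4 or 5 or HK 3, 4 or 6 (0.082) and Ldha without DK 4 (0.0507). With the covariate 1 gene of the list, Pck1, passed, and within the 300s none. Of 24 genes of amino acid breakdown 2 rose, both of the glycine cleavage system: Gldc by 1.12 and Amt by 0.46. Gldc lost its call without DK 4 or 6 or HK 4 or 6 (up to 0.0655), and Amt without 9 of the 12 libraries, all but DK 1, DK 3 and HK 1 (up to 0.113). Both lost it with the covariate for number series. The list's median was 0.05, and -0.04 with library sums.

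The cholesterol synthesis list had 2 of 22 genes higher, Cyp51 (0.43) and Nsdhl (0.26), where 2.7% of all tested genes were called higher. It had 21 of 22 positive changes, with a median of 0.25. Its summed FPKM was 342.4 to 428 in DK and 291.4 to 337.9 in HK. Cyp51 lost its call in no leave-out but did with the covariate and within the 300s (adjusted p up to 0.348), where no gene of the list passed; Nsdhl lost it there too and without DK 2, 4 or 6 or HK 2, 3 or 4 (leave-out adjusted p up to 0.0882). The count was 6 without DK 1, 3 without HK 1 or HK 5, 1 with library sums, 5 with quantile normalization or the groups alone, 4 with voom and 13 with library weights. In steroid, retinoid and vitamin D metabolism 2 of 18 rose, Cyp27b1 and Cyp2e1 (0.79), a cytochrome P450 of ketones and small solvents; the call of Cyp2e1 ended without DK 2, 4, 5 or 6 or HK 3, 4 or 6 (up to 0.0915). Antioxidant and glutathione genes had 3 of 26 higher and none lower: Gstm1, Gpx1, the main cytosolic glutathione peroxidase (0.74), and Txn1, thioredoxin (0.48). With quantile normalization, library sums or the groups alone 1 gene of that list passed as lower. Txn1 ran from 391.6 to 514.7 FPKM in DK and from 302 to 346.5 in HK, without overlap, and Gpx1 lost its call without HK 6 (0.0516). Nuclear genes of the respiratory chain had 1 call in 34 and 31 positive changes, with a median of 0.23 that was 0.08 with quantile normalization (26 positive) and 0.14 with library sums. That count was 0 in 8 of the 12 leave-outs and with the covariate, and 3 with quantile normalization or library weights. With the covariate Gpx1, Txn1 and Cyp2e1 lost their calls too (adjusted p = 0.0936, 0.21 and 0.155).

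**Figure D3:**
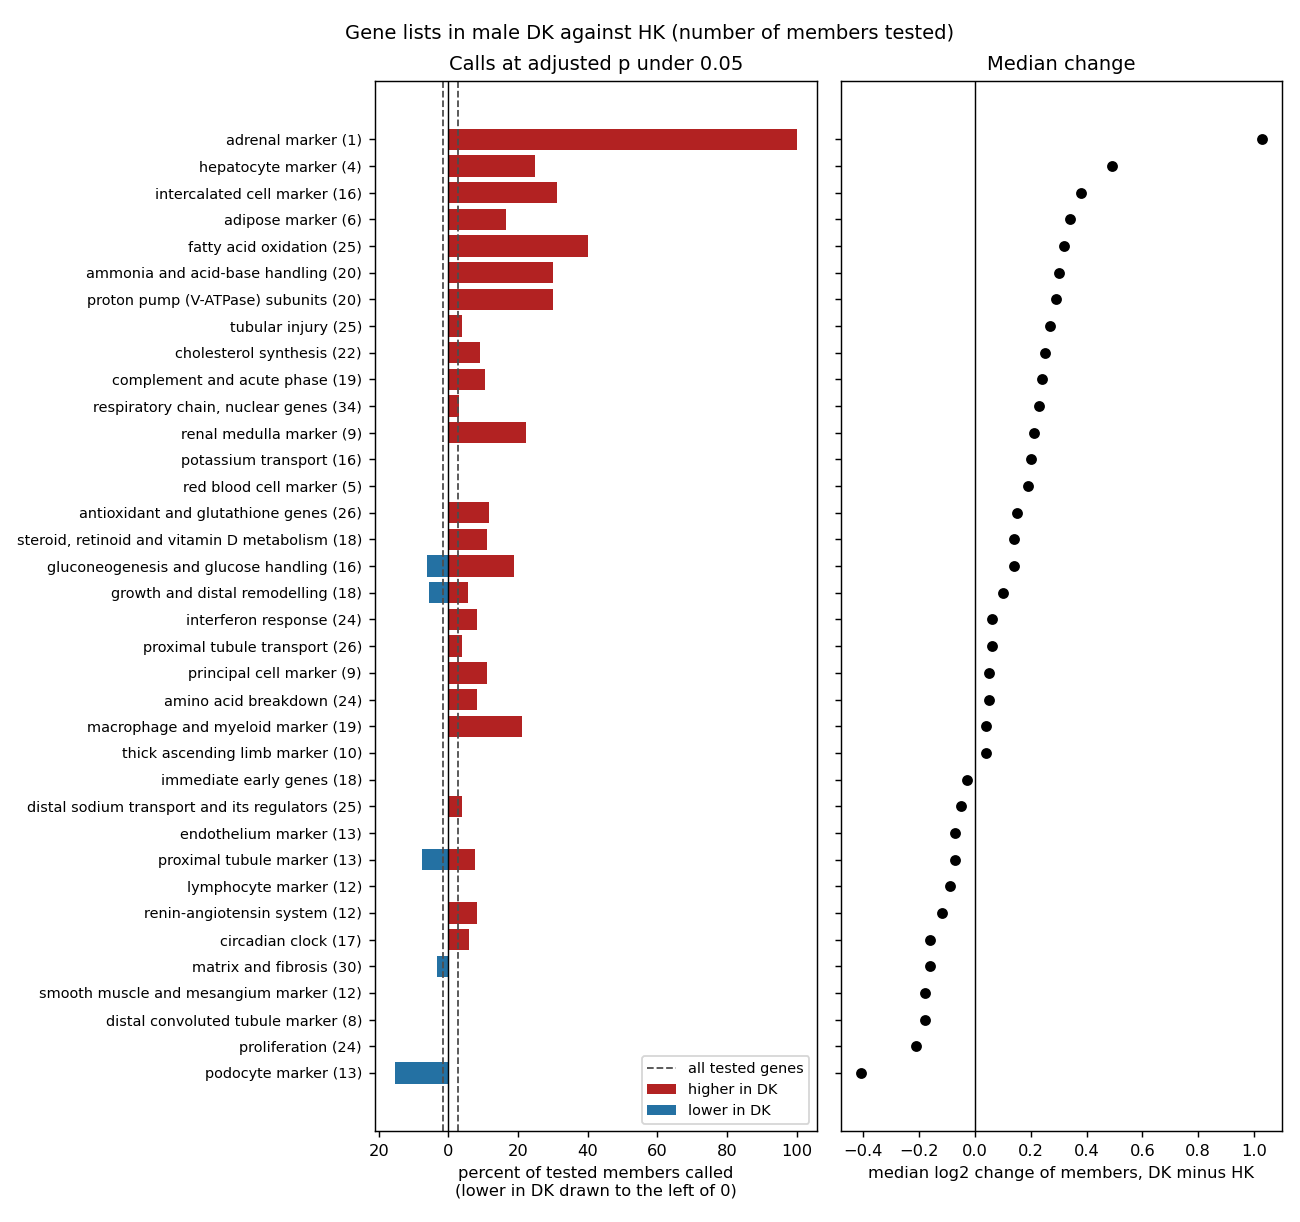
Left, the percent of the tested members of each of 36 lists called higher (right of 0) or lower (left of 0) in DK, with dashed lines at 2.7% and 1.62% for all tested genes; right, the median log2 change of each list's members. Fatty acid oxidation, with 10 of 25, has the longest bar among lists of over 10 members, and the podocyte list has the lowest median, -0.41.

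Few transport genes of the distal nephron, which the diet is known to act on, were called. Over all tested genes 4.32% were called, so few calls in lists of this size do not set them apart. None of 16 potassium transport genes was called in either direction (median 0.20), and of 25 genes of distal sodium transport and its regulators Slc26a4 alone was called (median -0.05). Slc12a3, the thiazide-sensitive sodium chloride cotransporter, stood at 74.3, 103 and 114 FPKM (lowest, median and highest) in DK and at 89.6, 116 and 132 in HK. The ranges overlapped, and the change of -0.20 had a 95% interval of -0.62 to 0.23 (limma adjusted p = 0.614). Slc12a1, the cotransporter of the thick ascending limb, changed by -0.23, with an interval of -0.72 to 0.26. Kcnj1, or ROMK, the secretory potassium channel, was at 70.3 ± 15.7 FPKM in DK and 66.4 ± 11.7 in HK, a change of 0.07 with an interval of -0.25 to 0.39. The basolateral channel genes Kcnj10 and Kcnj16 stood at -0.35 (-0.87 to 0.16) and 0.19 (-0.11 to 0.48). A change that did not pass is not shown to be absent, and these intervals give the sizes that remain possible.

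The epithelial sodium channel subunits did not pass either: Scnn1a at 0.13 (95% interval -0.18 to 0.44), Scnn1b at -0.40 (-0.73 to -0.07) and Scnn1g at 0.05 (-0.29 to 0.40). Their regulators included Wnk1 at -0.16 (-0.45 to 0.13), Stk39, or SPAK, at 0.14 (-0.08 to 0.36), Klhl3, the ubiquitin ligase adaptor for WNK kinases, at -0.43 (-0.89 to 0.04), Sgk1 at -0.08 (-0.64 to 0.48), the mineralocorticoid receptor gene Nr3c2 at -0.32 (-0.70 to 0.05) and Hsd11b2 at -0.16 (-0.47 to 0.15). Wnk4, which activates SPAK, stood at 7.20 ± 1.80 FPKM in DK and 5.41 ± 0.578 in HK, a change of 0.36 (limma adjusted p = 0.0975) that passed without DK replicate 1 (0.0325) and within the 300s (0.0341). Oxsr1, the kinase related to SPAK, changed by -0.16 (adjusted p = 0.057) and passed without DK replicate 5 (0.0437) or HK replicate 2 (0.0465), with library sums (0.0493), with quantile normalization (0.0408) and with library weights (0.0104). The sodium pump subunit Atp1b1 stood at 0.30 (0.11 to 0.50) and the pump's modulator Fxyd2 at 0.37 (0.07 to 0.68), with adjusted p of 0.0612 and 0.145. Atp1b1 passed without DK replicate 1 (0.0213). The colonic proton and potassium pump gene Atp12a, known to take up potassium in the collecting duct, was low throughout, at 0.441 to 2.504 FPKM in DK and 0.222 to 0.811 in HK, a change of 0.70 with an interval of -0.05 to 1.44. Kcne1 stood at -0.69 (-1.29 to -0.10).

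**Figure D4:**
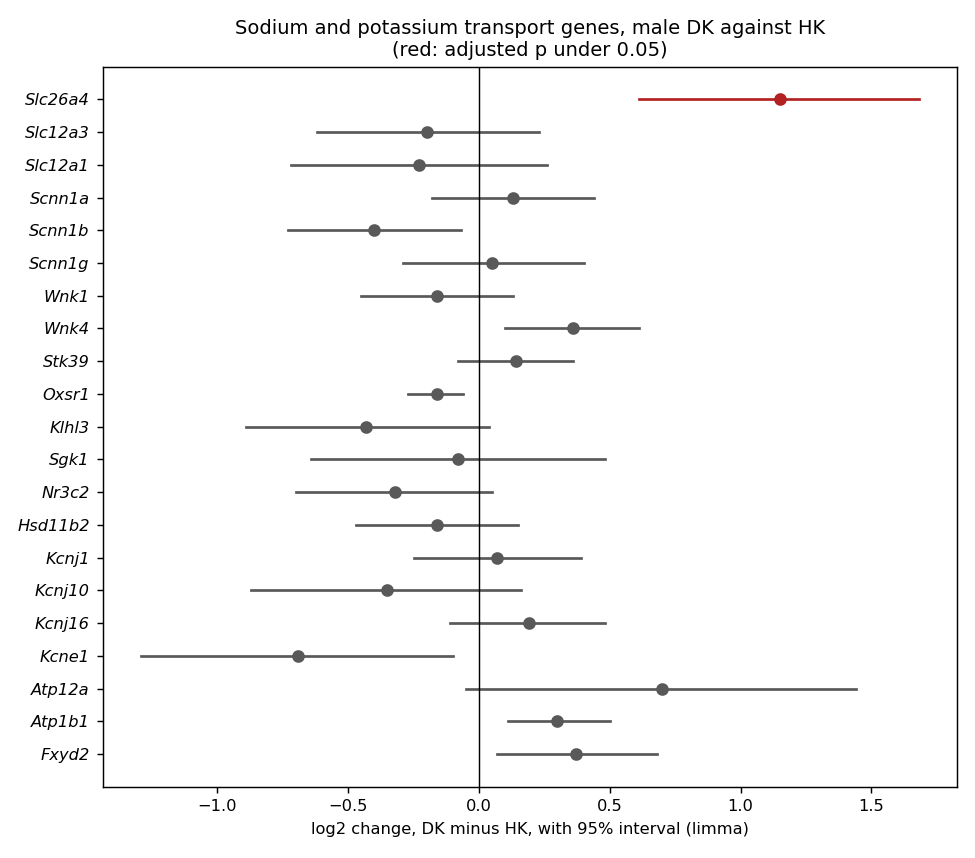
Log2 change, DK minus HK, with its 95% interval from limma for 21 sodium and potassium transport genes in males. Slc26a4 (1.15) is the single called gene, and the intervals of Scnn1b, Wnk4, Oxsr1, Kcne1, Atp1b1 and Fxyd2 exclude 0 without passing the adjustment over 14264 genes.

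In the glomerulus all 13 podocyte markers had lower means in DK, 2 of them called, with a median of -0.41, the lowest of the 36 lists. The summed FPKM of the list was 184.3 to 225.2 in DK and 232.8 to 340.8 in HK, so the groups did not overlap, and none of the 13 was at 0. Synpo, an actin-binding protein of foot processes, ran from 9.94 to 14.0 FPKM in DK (median 12.4) and from 16.1 to 20.9 in HK (median 17.1), without overlap, and fell by 0.53 (SE 0.14, limma adjusted p = 0.0317). Tcf21, a podocyte transcription factor, fell by 0.55 (adjusted p = 0.0436). The calls were not firm: no podocyte marker passed without DK 2, 4, 5 or 6 or HK 3, 4 or 6, nor with the number series as a covariate, where the median was -0.36, nor within the 300s, while 3 passed without HK 5, 5 with library sums and 9 with library weights. Synpo lost its call in those same leave-outs (adjusted p up to 0.0971) and Tcf21 in all but that of DK 1 (up to 0.11). Smooth muscle and mesangial markers had no call in 12 (median -0.18) and endothelial markers none in 13 (-0.07). As 4.32% of all tested genes were called, no call in lists of this size does not set them apart. The part of the glomerular share of the tissue in the other results was not tested.

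Markers of tubule segments other than the intercalated cell held few calls, where 4.32% of all tested genes were called. Proximal tubule markers had 1 gene higher, Cyp2e1, and 1 lower, Miox, in 13 (median -0.07). Miox, the myo-inositol oxygenase of the proximal tubule, fell from 798 ± 189.6 to 436.7 ± 174 FPKM, by 0.93 (SE 0.21, limma adjusted p = 0.0104), and its groups overlapped through HK replicate 5, at 443; the call was lost with the covariate (0.0833) and with the groups alone (0.0708). Thick ascending limb markers had no call in 10 (median 0.04) and distal convoluted tubule markers none in 8 (-0.18). Of 9 principal cell markers 1 rose, the water channel gene Aqp4 (1.04), which with the keratin Krt7 (0.54) also made up the 2 of 9 medullary markers that rose. Aqp4 lost its call without DK 2, 5 or 6 or HK 1, 2, 3 or 6 (adjusted p up to 0.102), and Krt7 without any library but DK 1, DK 3 and HK 5 (0.108). Neither Aqp4 nor Krt7 was called with the covariate for number series. The list for proximal tubule transport had 1 call in 26 (median 0.06), Abcb11, named above as the bile salt export pump of the liver. The medians of the principal cell (0.05), thick ascending limb and proximal tubule transport lists turned to -0.03, -0.05 and -0.03 with library sums.

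Of 25 tubular injury genes Krt8, a keratin of simple epithelia, was the single one called: it rose from 167 ± 50.9 to 345 ± 110.5 FPKM, by 1.01 (SE 0.19, limma adjusted p = 0.00206), and was called in every alternative. The count was 4 without DK replicate 1, 3 without HK replicate 5, 2 with quantile normalization and 6 with library weights. The injury markers Lcn2 and Havcr1 stood at 0.95 (adjusted p = 0.128) and 0.27 (0.754). HK replicate 5 stood apart in both, with Lcn2 at 113 FPKM and Havcr1 at 107, and Lcn2 passed without it, at 1.26 (adjusted p = 0.0273), and without DK replicate 1, at 1.16 (0.0461). The summed FPKM of the list was 3456 to 6333 in DK and 2764 to 9100 in HK, the highest in HK replicate 5. Of 30 matrix and fibrosis genes 1 fell, the lysyl oxidase Loxl2, from 8.71 ± 1.75 to 4.84 ± 1.54 FPKM, by 0.81 (adjusted p = 0.013; 0.122 with the covariate), and the median was -0.16. None of 24 proliferation genes was called (median -0.21); 2 passed as lower without DK 2 or HK 3, with a pseudocount of 1 and with voom and 3 with library sums, 1 passed as lower with no filter and with the covariate, and 3 passed as higher with library weights and 1 in a fit of the groups alone. Of 18 immediate early genes none was called (-0.03), and 1 passed as lower with the groups alone or library weights. With 4.32% of all tested genes called, few or no calls in lists of this size do not set them apart.

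Macrophage and myeloid markers had 4 of 19 higher, against 2.7% of all tested genes. They were the complement chains C1qb (0.89) and C1qc (0.64), the endotoxin receptor Cd14 (0.72) and Gpnmb, a glycoprotein of lysosome-rich phagocytes (0.92). The list's median was 0.04, with -0.04 under library sums, and its summed FPKM overlapped, at 1509 to 2126 in DK and 1333 to 1888 in HK. C1qb and C1qc were also the 2 calls in 19 complement and acute phase genes (median 0.24). In HK replicate 5 Cd14 stood at 9.95 FPKM and Gpnmb at 27.7, both inside the DK range, and with that library left out 5 macrophage markers passed; 2 passed without DK 5, DK 6 or HK 6. C1qb and Cd14 kept their call without any 1 library, but C1qb lost it within the 300s (adjusted p = 0.0833) and Cd14 there, with the covariate and with the groups alone (up to 0.119). The macrophage count was 1 with the covariate, 1 with the groups alone and 0 within the 300s. Gpnmb lost it without DK 5, DK 6 or HK 6 (adjusted p up to 0.0686), and C1qc without DK 2, 4, 5 or 6 or HK 2, 3, 4 or 6 (up to 0.1). Lymphocyte markers had no call in 12 (median -0.09), where 4.32% of all tested genes were called. Of 24 interferon response genes 2 rose, B2m (0.33) and the immunoproteasome subunit Psmb8 (0.60), with a median of 0.06, and -0.02 with library sums. B2m lost its call without DK 2, DK 4, HK 3 or HK 6 (up to 0.0854) and Psmb8 without all libraries but DK 1, DK 3 and HK 5 (0.12). With the covariate for number series neither was called.

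The remaining lists held at most 2 calls each, where 4.32% of all tested genes were called. The circadian clock had Cry1 higher (0.79) in 17 genes (median -0.16), and its call ended without DK 2, 3, 4 or 6 or HK 1, 3, 4 or 6 (adjusted p up to 0.127). The renin-angiotensin list had 1 call in 12, Atp6ap2 (median -0.12). Growth and distal remodelling genes had Fgf1 higher (0.48) and the receptor Fgfr1 lower (-0.34) in 18; Fgf1 lost its call without DK 5 or 6 (0.0621) and Fgfr1 without DK 4 or HK 6 (0.0568). Red cell markers had no call in 5. Adipose markers had 1 in 6, Pck1, which proximal tubule also expresses, and the fat cell hormone gene Adipoq stood at 4.99 ± 1.84 FPKM in DK and 3.85 ± 0.601 in HK. Of 4 hepatocyte markers tested Tf, transferrin, rose by 1.35 (limma adjusted p = 0.00699), from 77.6 ± 17.3 to 223.6 ± 142 FPKM, while albumin (Alb) was at 0.389 ± 0.891 and 0.0822 ± 0.076. The adrenal list had a single tested gene, Cyp11a1, the side-chain cleavage enzyme of steroid synthesis, which rose by 1.03 (adjusted p = 0.0121). Tf lost its call with the covariate (0.0517), as did Cry1 (0.382) and Fgfr1 (0.343), and Cyp11a1 within the 300s (0.0803). The aldosterone synthase gene Cyp11b2 was near 0 in both groups, at 0.00793 and 0.00722 FPKM.

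The 6 male NK libraries, which entered no DK or HK mean, placed the called genes between the diets. On the log2 scale the NK mean lay between DK and HK in 473 of the 616 genes (76.8%; 40.7% of all tested genes) and nearer to HK than to DK in 517 (83.9%; 60.5% of all). These shares are a description, since a wider gap between 2 groups holds another mean more often. DK against NK gave 680 genes (4.77%). HK against NK gave 0 of 14264 (0%) by limma, with 1076 at an unadjusted p under 0.05. These comparisons share libraries with DK against HK, so values are given side by side. By their labels all 6 NK libraries are numbered in the 300s, as are all HK libraries. DK against NK therefore crosses the number series as DK against HK does, and HK against NK does not. What part the series has in the place of NK was not tested. Pck1 stood at 3622 ± 986 FPKM in DK, 1302 ± 501 in NK and 1452 ± 426.5 in HK. For Glud1 the means were 598 ± 177, 281 ± 31.8 and 302 ± 27.6. Cyp4a2 was spread more evenly, at 2648 ± 426 in DK, 1779 ± 272.4 in NK and 1368 ± 97.5 in HK, as was Gstm1, at 142 ± 75.4, 58.5 ± 11.7 and 35.4 ± 14.0. Of the 12 largest rises, 12 were also called in DK against NK, and of the 12 largest falls 8. These genes were picked by DK against HK, and both comparisons use the same DK libraries. The counts are therefore a description and no separate support.

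In females the same diets gave far more calls, 5188 genes (36.4%). No library is shared between the sexes. Of the 616 genes called in males 497 were called in females, 80.7% of the male list and 9.58% of the female list, 489 of them in the same direction. The female change had the same sign in 589 of the 616 and was larger in size in 401. The same shares over all tested genes were not counted, so these counts are a description. A test of the sex difference itself, the male change minus the female change, called 777 genes (5.45%), with the male change above the female in 340 and below it in 437. Of the 616 genes 80 were among them. The other genes called in males did not pass this test, which does not show that they changed alike. The female DK and HK libraries are all numbered in the 300s, so the number series enters the male change and not the female one. Series and sex difference are thus not fully told apart. With the series as a covariate the test of the sex difference called 350 genes.

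The genes with the largest sex differences were of both kinds. Rbp4, the retinol carrier, was at 21.1 ± 23.1 FPKM in male DK and 4.38 ± 3.15 in male HK (SD, n = 6), against 502.2 ± 241 and 2.02 ± 0.893 in females. Its male change of 1.64 did not pass (limma adjusted p = 0.111), and the sex difference was -5.86 (adjusted p = 6.26e-05). In males Rbp4 was high in DK replicates 5 and 6, at 47.9 and 53.6 FPKM, and within the HK range, 1.38 to 9.66, in the other 4 DK libraries. The male change of Rbp4 passed with the covariate for number series, at 3.35 (adjusted p = 0.0186). Tat, the tyrosine aminotransferase, differed by -4.31 and Sds, the serine dehydratase, by -3.27; neither was called in males, at 0.63 and 0.20. Abcb11 rose in both sexes and by 2.73 less in males on the log2 scale.

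In the opposite direction Oacyl, an acyltransferase-like gene, differed by 3.08, at -1.43 in males and -4.51 in females. The homeobox gene Nkx1-2 differed by 2.83, at -0.30 in males (adjusted p = 0.481) and -3.12 in females. Rup2 differed by 2.63, since no read of it was found in the 11 female libraries of these diets. Among ammonia genes the male rise was smaller for Slc38a3, by 1.88 (limma adjusted p = 0.0307), and for Glud1, by 1.0 (0.00602). For Pck1 the difference of -0.96 did not pass (0.127). Of the 20 ammonia and acid-base genes 5 were called in the sex difference, all with the male change below the female. Of the 16 intercalated cell markers none was. The share over all tested genes was 5.45%, so no call in a list of 16 does not set it apart.

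**Figure D5:**
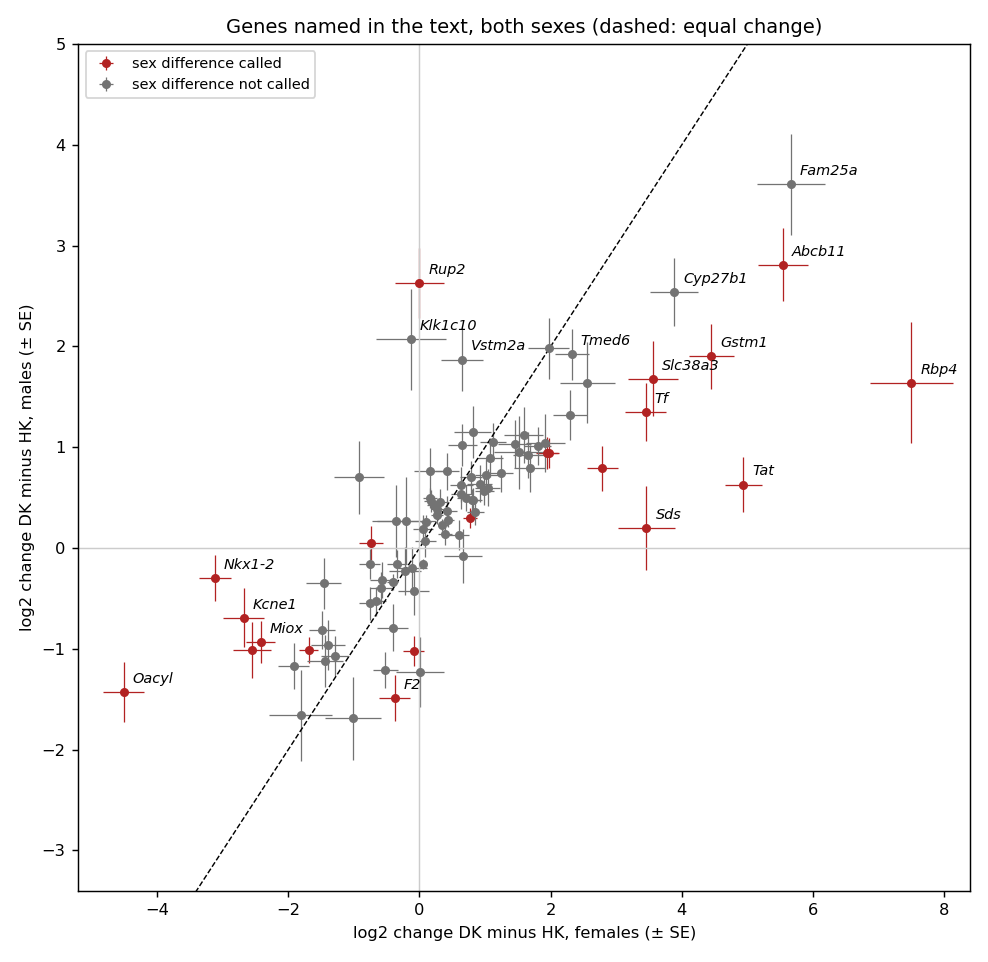
Log2 change between DK and HK, with its SE, in females (horizontal axis) and males (vertical axis) for the genes named in the text; the dashed line marks equal change and red marks a called sex difference. Rbp4, Tat and Sds lie far below the line, Oacyl and Nkx1-2 above it, and Rup2 at 0 in females and 2.63 in males.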

How the data were processed

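Messenger RNA of kidney cortex was sequenced with poly-T capture, per the labels' protocols. The submitters' processing notes name the read trimmer fastp, the aligner HISAT2 2.0.5, featureCounts 1.5.0-p3 and StringTie 1.3.3b; since the sources used here name no genome build, no coordinates of the table are printed. The authors deposited FPKM values for 32545 genes, 9038 of them without a read. Multiplied by gene length and a factor per library, 100% of values were whole reads (tolerance 0.01 read), after a scaling between libraries by the authors.

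The 35 libraries were fitted as 6 group means in limma 3.58.1 on log2(FPKM + 0.5), with moderated variances and a trend (29 residual degrees of freedom), for the 14264 genes reaching 1 FPKM in 5 or more libraries. Benjamini-Hochberg adjustment ran over all of them, and an adjusted p under 0.05 was a call. The fit was tested on simulated data. The members and gene lists were chosen with earlier results of these data known. Of 680 list entries 660 matched. Named genes were the 12 largest rises and falls with a mean of at least 2 FPKM, up to 4 called members per list, all tested sodium and potassium transport genes, and 5 genes each way in the sex difference; the text names a part of them, and Car4, Insrr, Lcn2, Havcr1, Adipoq, Alb and Cyp11b2 outside the rule. A few genes that the rule picks are not reported here. Voom on recovered reads, other scalings, filters, pseudocounts and leave-outs were alternatives. No sample column was left out as belonging to another series. No pair of libraries of a group was a copy of another (chi-square per gene 8.89 to 65.14 in 30 pairs). The analysis used R 4.3.3 and Python 3.11.15.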

Additional observations from a re-analysis of the deposited data

Results flagged for a closer look

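Single libraries that lay far from the other 5 of their group were looked for in 198 sets of 6 values (the genes named and the library measures, in male DK and male HK), and 18 were found; chance alone marks about 1 in 20 such sets. HK replicate 5 accounted for 12 of the 18. In that library Gp2 stood at 2.17 FPKM, Tmem86a at 15.4, Atp6ap2 at 61.4, Slc25a20 at 28.4, Miox at 443 and Wnk1 at 28.2, all below the other 5 HK libraries. The phagocyte genes Cd14 and Gpnmb stood at 9.95 and 27.7, and the injury markers Lcn2 and Havcr1 at 113 and 107, all above them. Its 50 leading genes held 19.52% of the reads, the lowest share in HK, and the authors' library size was 1.16 times its sum of reads, the highest. Elsewhere Wdr86 was high, at 5.80 FPKM, and Pygm low, at 2.22, in HK replicate 6. In DK replicate 1 Gng7 (15.4 FPKM) and Oacyl (2.01) were above the other DK libraries, and Spns3 was low in DK replicate 4, at 1.28. HK replicate 4 had the most reads in genes, 20.91 M.

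The response to DK against HK differed between the sexes, by limma's test of the difference, for 21 named genes. The number series, which differs between DK and HK in males alone, was not part of that test. Each value is the male minus the female log2 change. Abcb11 (-2.73), Gstm1 (-2.55), Tf (-2.10), Cyp2e1 (-2.0), Slc38a3 (-1.88), Cyp4a2 (-1.03) and Glud1 (-1.0) rose in both sexes and less in males. Rbp4 (-5.86), Tat (-4.31), Sds (-3.27) and Atp1b1 (-0.46) rose in females and did not pass in males. For F2 (-1.11) and Cnnm1 (-0.93) the fall passed in males and not in females. Oacyl (3.08), Tmem86a (1.55), Miox (1.49) and Pygm (0.68) fell in both sexes and less in males. Nkx1-2 (2.83), Kcne1 (1.99) and Scnn1g (0.79) fell in females and did not pass in males, and Rup2 (2.63) rose in males and had no read in these females.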

How the results depend on the processing

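Of the 67 genes named and called, 13 kept their call in every alternative they were tested in and 36 in every fit that left out a single library, and none changed direction. The count of 616 ran from 252 (without DK replicate 4) to 1046 (without DK replicate 1), from 164 to 624 for genes higher in DK and from 88 to 422 for genes lower. Weights per library gave 1923 genes, 1025 higher and 898 lower. The number series as a covariate gave 129 (86 and 43), and the libraries of the 300s alone 97 (71 and 26), where fewer samples enter. Library sums of reads gave 210 higher and 483 lower, the cause of the shift being the scaling itself. For the count of 777 sex differences these were 1483 with weights, 350 with the covariate and 38 within the 300s, and leave-outs ran from 598 to 865. Other pseudocounts, no filter, other scalings, voom and a fit of the groups alone left both counts within 1.5 times; the filter on male libraries was run for the first count, with 589 genes. The replicate numbers did not pair the libraries: same-numbered DK and HK libraries correlated from -0.175 to 0.167, and 1 of 6 DK libraries correlated best with its own number. With the replicate block 508 genes passed. The cause of the other shifts was not tested. The depth of 14.2 to 20.91 M reads limits genes such as Rup2, with 2 reads in HK.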
